A study of Mus musculus with 2 samples.

Results

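The genes described here build, sulfate, trim and carry heparan sulfate and chondroitin sulfate, and were chosen by gene symbol: linker enzymes, chain polymerases, epimerases, carbohydrate sulfotransferases, extracellular sulfatases and heparanase, syndecans and glypicans. Of 19674 rows in the count table, 54 carried such a symbol, and the 50 whose counts in the 2 libraries together reached 50 are the members. The other 4 were under that minimum. RNA was sequenced in bulk from 2 samples of mouse skin fibroblasts of a wild-type cell line labelled MDFB, 1 given IL-17A and 1 given vehicle. IL-17A is an inflammatory cytokine released mainly by lymphocytes that acts on fibroblasts and epithelial cells. The labels give no dose and no length of treatment. Both libraries were taken as the same batch, which the treatment labels and titles do not state. Each group is a single library of a single line, so no difference below has a replicate check or a p-value.

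Heparan sulfate and chondroitin sulfate are long sugar chains fixed to serines of core proteins through the same short linker. After the linker, the first sugar added decides the chain: N-acetylglucosamine leads to heparan sulfate, and N-acetylgalactosamine leads to chondroitin sulfate, which becomes dermatan sulfate where its glucuronic acid is epimerised. Sulfates placed along the chains form binding sites for growth factors, chemokines and proteases, and in skin the chains of dermal fibroblasts hold such ligands in the matrix and at the cell surface.

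The libraries held 23559416 counts with IL-17A and 24427027 with vehicle. CPM, the unit of level, relates a gene's counts to the size of its library after TMM scaling, which sets the bulk of genes level between the libraries. Intervals in brackets are exact 95% Clopper-Pearson intervals. They cover counting error only and hold no variation between cultures. They also take each count as a separate molecule, because PCR copies of a molecule cannot be recognised here. The limit for calling a gene higher or lower was 2-fold. The fibroblast label held: the 8 fibroblast markers, collagens, Pdgfra, Pdgfrb, Vim, Lum and Thy1, summed to 38035 CPM with IL-17A and 55756 CPM with vehicle. The 6 leukocyte and myeloid markers summed to 267 CPM with IL-17A and 194 CPM with vehicle, mostly Lyz2, the 4 mural markers to 6.91 CPM with IL-17A and 55.6 CPM with vehicle, and keratinocyte, endothelial, melanocyte, Schwann and adipocyte markers to between 0.478 and 12 CPM in each library, with Krt1 and Tyr at 0 in both. In bulk RNA, fewer cells of a type and less RNA per cell cannot be told apart.

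Past the 2-fold limit, 6 of the 50 members were higher in the IL-17A library and 5 were lower, which left 39 within it. Among all 13534 genes with at least 50 counts, 5.19% were higher and 3.69% lower by the same rule, 8.88% in all. The higher members were Chst11, Hs3st1, Xylt1, Sdc4, Ext1 and Chst15, and the lower members were Sulf2, Gpc6, Hs3st3a1, Chst3 and Chst10. The median log2 ratio of IL-17A over vehicle was 0.16 over the members and 0.00 over all measured genes, and 34 members had a ratio above 1 while 16 had one below. With scaling by total counts, B3galt6, B3gat3, Chpf and Extl2 passed from just above 1 to just below it. Summed, the members took 5875 CPM with IL-17A and 4805 CPM with vehicle. Chst10 at 2.12-fold lower was the called member nearest the limit, and Gpc1 at 1.83-fold higher was the nearest one inside it.

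**Figure D1:**
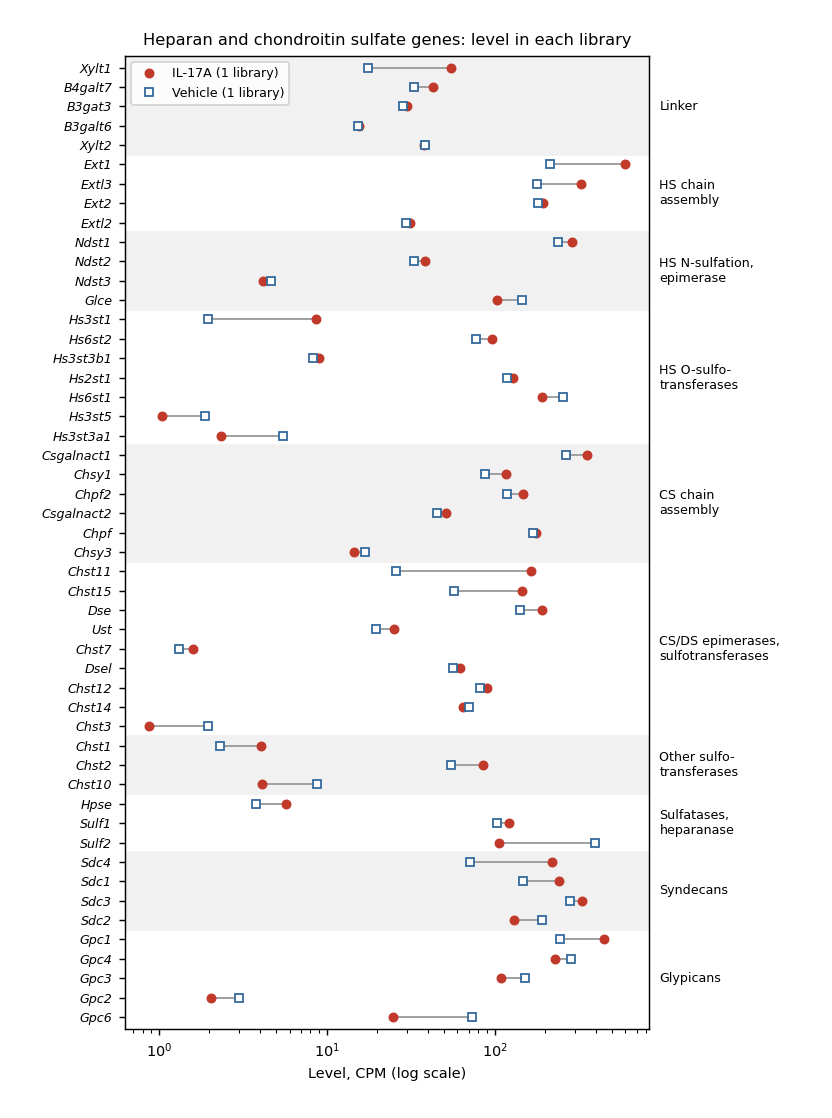
Level of each of the 50 members in CPM on a log axis, in the IL-17A library (red circles) and the vehicle library (open blue squares), 1 library each, grouped by role. Ext1 at 599 CPM with IL-17A is the highest point of that library, and Sulf2 at 397 CPM the highest of the vehicle library.

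**Figure D2:**
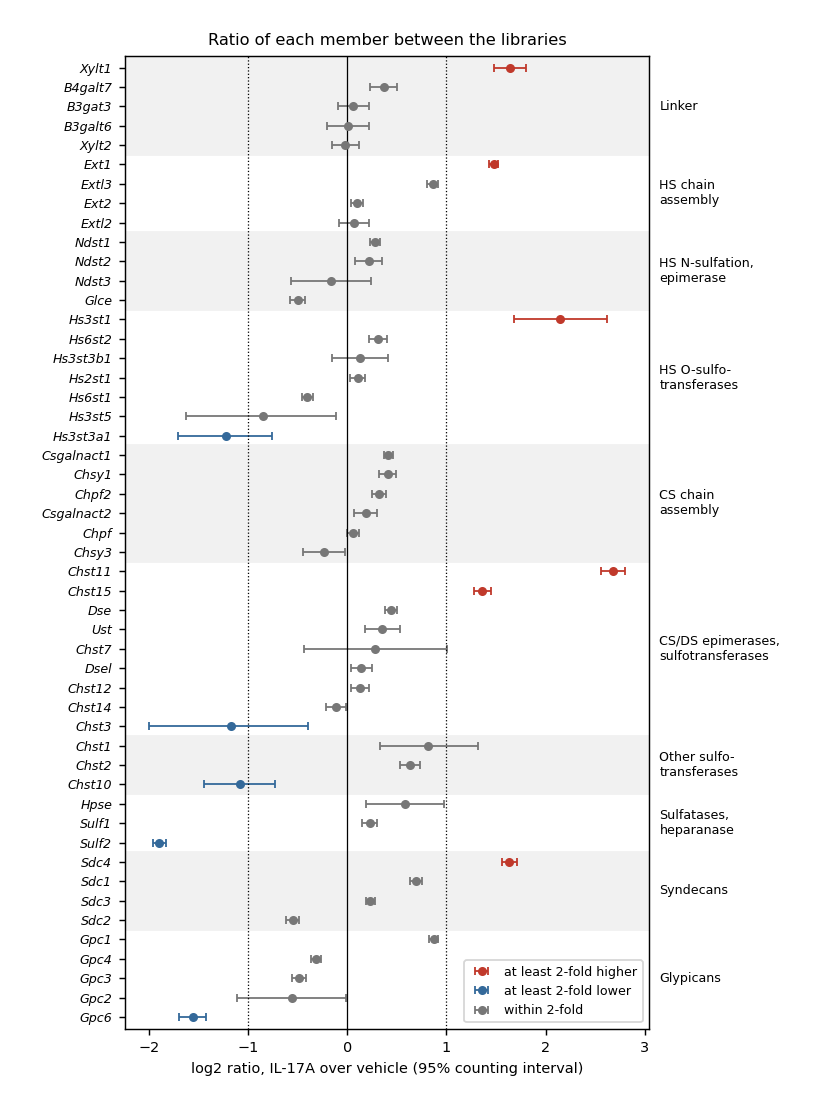
log2 ratio of IL-17A over vehicle for each member with its 95% counting interval, grouped by role, with dotted lines at 2-fold and with the 6 higher members in red, the 5 lower in blue and the others in grey. The intervals of all 6 higher members lie wholly past 2-fold, and those of Chst3, Hs3st3a1 and Chst10 cross it on the lower side.

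**Figure D3:**
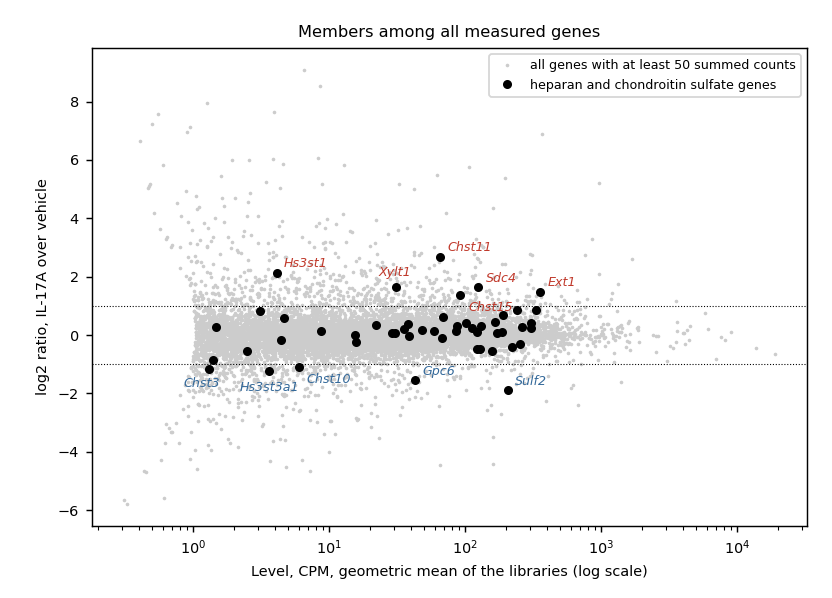
log2 ratio of IL-17A over vehicle against the geometric mean level in CPM (log axis) for all genes with at least 50 summed counts (grey; genes with no count in a library are left out) and for the members (black, named past the dotted 2-fold lines). Chst11 at 2.68 and Sulf2 at -1.89 mark the ends of the members' range.

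The bases ahead of the starts of 3 members are shown because they hold the ends of that range and the surface core protein that differed most: Chst11, with the highest ratio, Sdc4, and Sulf2, with the lowest. RefSeq's promoter table on GRCm38.p6, the assembly of mm10, held a start for 40 of the 50 members and for 8 of the 11 past 2-fold. Each line gives the 250 bases before a start, 5′ to 3′ on the gene's strand, with GC boxes (GGGCGG on either strand) and any match to the NF-kB consensus in capitals.
Chst11: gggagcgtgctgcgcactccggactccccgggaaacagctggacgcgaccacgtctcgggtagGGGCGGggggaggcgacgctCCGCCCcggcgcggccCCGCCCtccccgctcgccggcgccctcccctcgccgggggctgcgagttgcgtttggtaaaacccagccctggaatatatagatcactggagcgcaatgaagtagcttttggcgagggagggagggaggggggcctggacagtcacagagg
Sdc4: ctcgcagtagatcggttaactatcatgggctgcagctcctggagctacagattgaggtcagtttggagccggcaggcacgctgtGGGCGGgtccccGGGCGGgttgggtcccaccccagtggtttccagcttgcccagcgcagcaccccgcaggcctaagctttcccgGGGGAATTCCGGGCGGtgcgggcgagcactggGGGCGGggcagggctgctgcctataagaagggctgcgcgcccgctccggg
Sulf2: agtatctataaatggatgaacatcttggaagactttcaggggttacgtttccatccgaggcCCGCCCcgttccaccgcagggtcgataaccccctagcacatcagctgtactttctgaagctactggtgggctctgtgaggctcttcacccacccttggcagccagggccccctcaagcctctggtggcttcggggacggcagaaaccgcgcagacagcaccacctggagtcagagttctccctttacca
The Chst11 bases lie on the plus strand at chr10:82985247-82985496, those of Sdc4 on the minus strand at chr2:164443189-164443438, and those of Sulf2 on the minus strand at chr2:166155684-166155933. Sulf2 has 2 starts in that table, and the one shown lies upstream of the other, whose window held none of the motifs. Sdc4 had the NF-kB consensus match, beginning at position -82 from the start and abutting a GC box, with 4 GC boxes in all. Chst11 had 3 GC boxes and Sulf2 had 1. The NF-kB consensus was searched after the Sdc4 bases had been seen. It occurred in 2 of 47 member windows (4.26%), those of Sdc4 and Ust, and in 3.90% of all 32851 windows. The GC box, also added then, occurred in 66.0% of member windows and 32.7% of all windows, which include genes not measured here. The box is made of G and C alone. GC content had a median of 52.4% over all windows and was 70% for Chst11, 68% for Sdc4 and 57.2% for Sulf2 as shown. Over member windows it ranged from 40.4% to 76.4%. The part of base composition in the GC box shares was not tested. An NF-kB form with fixed outer letters (GGG, any 2 bases, then TTTCC), a C/EBP form, TTGCNNAA, and an AP-1 form, TGANTCA, were searched on both strands. They occurred in 1, 5 and 1 member windows, or 2.13%, 10.6% and 2.13%, against 1.41%, 9.56% and 6.75% of all windows. None of the 10 windows of the 8 members past 2-fold held any of them. Matches describe letters and were not tested as sites.

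Among the linker enzymes, the called gene acts at the opening step. Xylt1, a xylosyltransferase that attaches the first sugar to the core protein, had 1264 counts (54.9 CPM) with IL-17A and 440 counts (17.6 CPM) with vehicle, 3.12-fold higher (interval 2.80 to 3.49). Its paralog Xylt2 had 878 counts with IL-17A and 967 with vehicle, a ratio of 0.987 (interval 0.900 to 1.08). Xylt1 is at 117380979 to 117673580 on chromosome 7. Per kilobase of merged exon, Xylt2 stayed the higher of the pair at 9.59 CPM with IL-17A and 9.72 CPM with vehicle, while Xylt1 was at 5.69 CPM with IL-17A and 1.82 CPM with vehicle. Xylt1 made up 37.2% of their summed level per kilobase with IL-17A and 15.8% with vehicle. By counts, without length, it made up 59.0% with IL-17A and 31.3% with vehicle, so the order with IL-17A depends on the length used. The galactosyltransferases B4galt7 and B3galt6 and the glucuronyltransferase B3gat3, which finish the linker, had log2 ratios of 0.37, 0.01 and 0.06.

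Among the enzymes that build the heparan sulfate chain, Ext1 stood apart from its partner. Ext1 and Ext2 form the complex that polymerises the chain. Ext1 had 13775 counts (599 CPM) with IL-17A and 5376 counts (215 CPM) with vehicle, 2.78-fold higher (interval 2.70 to 2.87), and lies at 53064038 to 53346159 on chromosome 15. Ext2 had 4443 counts with IL-17A and 4505 with vehicle, a ratio of 1.07 (interval 1.03 to 1.12). Per kilobase the partners were apart with IL-17A, at 74.1 CPM for Ext1 and 26.3 CPM for Ext2, and near each other with vehicle, at 26.6 CPM for Ext1 and 24.6 CPM for Ext2. Of the counts of both genes, Ext1 held 75.6% with IL-17A (interval 75 to 76.2) and 54.4% with vehicle (interval 53.4 to 55.4). Extl3, which adds the sugar that commits the linker to heparan sulfate, had 7493 counts with IL-17A and 4481 with vehicle, 1.82-fold higher (interval 1.75 to 1.89) and so inside the limit. Extl2, a related transferase that acts on the linker, stood at 0.07 on the log2 scale. Extl1, under the minimum, had 24 counts with IL-17A and 21 with vehicle. Summed, the 5 genes of chain assembly had 1149 CPM with IL-17A and 605 CPM with vehicle, a ratio of 1.90.

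Enzymes that give the heparan chain its N-sulfates and epimerise it were within 2-fold, as were 12332 of all 13534 measured genes. Ndst1 and Ndst2, N-deacetylase and N-sulfotransferase in a single protein, had log2 ratios of 0.28 and 0.22, and the sparse Ndst3, with 96 counts with IL-17A and 117 with vehicle, stood at -0.17. Glce, the epimerase that makes iduronic acid, had 2373 counts with IL-17A and 3638 with vehicle, 1.41-fold lower (interval 1.34 to 1.49). The summed level of these 4 genes was 433 CPM with IL-17A and 420.1 CPM with vehicle, a log2 ratio of 0.04 that turned to -0.02 with scaling by total counts.

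The sulfotransferases that act next on heparan sulfate had ratios on both sides of 1. Hs2st1, the 2-O-sulfotransferase, stood at 0.11 on the log2 scale. The 6-O-sulfotransferase Hs6st1 had 4425 counts with IL-17A and 6356 with vehicle, 1.32-fold lower (interval 1.27 to 1.37), and Hs6st2 had 2219 counts with IL-17A and 1941 with vehicle, 1.24-fold higher (interval 1.17 to 1.32). Per kilobase, Hs6st1 made up 73.7% of the pair's level with IL-17A and 82.2% with vehicle.

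The 3-O-sulfotransferases, which add the rarest sulfate, held called members in both directions, all at low levels. Hs3st1, the enzyme known for making the antithrombin-binding site, had 199 counts (8.65 CPM) with IL-17A and 49 counts (1.96 CPM) with vehicle, 4.41-fold higher (interval 3.21 to 6.16). It lies at 39613935 to 39755475 on chromosome 5. Hs3st3a1, whose human counterpart makes the binding site for a herpes simplex glycoprotein, had 54 counts (2.35 CPM) with IL-17A and 137 counts (5.48 CPM) with vehicle, 2.33-fold lower (interval 1.69 to 3.26), and lies at 64435332 to 64522841 on chromosome 11. That difference is uncertain. In the GENCODE M21 annotation an opposite-strand gene overlaps 32.9% of its exon bases, and 42.8% of its stretches of 50 bases also occur in transcripts of other genes, while the strand setting of the counting is unknown here. Its paralog Hs3st3b1, which shares part of its sequence, had 208 counts with IL-17A and 207 with vehicle. Hs3st5 had 24 counts with IL-17A and 47 with vehicle, a log2 ratio of -0.85 (interval of the ratio 0.325 to 0.926), and Hs3st6, under the minimum, had 9 with IL-17A and 10 with vehicle. Of the level of these 5 genes per kilobase, Hs3st1 took 56.7% with IL-17A and 18.8% with vehicle.

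Chondroitin chain assembly was within 2-fold throughout, like 12332 of all 13534 measured genes. While all measured genes had a median log2 ratio of 0.00, 5 of its 6 members were above a ratio of 1. Csgalnact1, which starts and extends the chain, was the most abundant of them at 356 CPM with IL-17A and 267 CPM with vehicle, 1.33-fold higher (interval 1.29 to 1.38). Its paralog Csgalnact2 stood at 0.18. The polymerising synthases Chsy1 and Chsy3 stood at 0.41 and -0.23 on the log2 scale, and the polymerising factors Chpf and Chpf2 at 0.06 and 0.32. Chpf was at -0.01 with scaling by total counts, and 44.1% of Chpf2's exon bases lie opposite another gene, Smarcd3, which had 451 counts with IL-17A and 732 with vehicle. Together the 6 genes summed to 862 CPM with IL-17A and 704 CPM with vehicle.

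Sulfation of chondroitin and dermatan held the highest ratio among the members. Chst11, which places sulfate at the 4-O position of chondroitin, had 3813 counts (166 CPM) with IL-17A and 647 counts (25.9 CPM) with vehicle. It was 6.41-fold higher (interval 5.89 to 6.97) and lies at 82985498 to 83195900 on chromosome 10. The other 4-O-sulfotransferases were nearer a ratio of 1 or sparse: Chst12, which also acts on chondroitin, had 2065 counts with IL-17A and 2051 with vehicle, Chst14, which acts on dermatan sulfate, had 1499 with IL-17A and 1757 with vehicle, and Chst13 had 1 with IL-17A and 0 with vehicle. Of the counts of these 4 genes, Chst11 held 51.7% with IL-17A (interval 50.5 to 52.8) and 14.5% with vehicle (interval 13.5 to 15.6). Per kilobase with IL-17A, Chst11 was at 30.0 CPM, Chst12 at 38.0 CPM and Chst14 at 31.2 CPM. With vehicle, Chst11 was at 4.68 CPM, far below Chst12 at 34.7 CPM and Chst14 at 33.6 CPM.

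Chst15, which adds a further sulfate at the 6-O position to chondroitin already sulfated at 4-O, was also higher. It had 3371 counts (146 CPM) with IL-17A and 1424 counts (56.9 CPM) with vehicle, 2.57-fold higher (interval 2.42 to 2.74), and lies at 132235780 to 132317228 on chromosome 7. An opposite-strand gene, Gm10584, covers 17.9% of its exon bases and had 17 counts with IL-17A and 6 with vehicle. The sulfotransferases that act at the 6-O position of unsulfated chondroitin were sparse. Chst3 had 20 counts (0.869 CPM) with IL-17A and 49 counts (1.96 CPM) with vehicle, 2.25-fold lower (interval 1.32 to 4.0), at 60181532 to 60219260 on chromosome 10. Chst7 had 37 counts with IL-17A and 33 with vehicle. With 69 and 70 summed counts, Chst3 and Chst7 were the members closest to the minimum. The dermatan epimerases Dse and Dsel stood at 0.44 and 0.14 and Ust, the uronyl 2-O-sulfotransferase, at 0.36 on the log2 scale. Summed, the epimerases and sulfotransferases of chondroitin and dermatan sulfate had 749.7 CPM with IL-17A and 456 CPM with vehicle.

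A few members matched by symbol act mainly on other sugars. Chst10, which sulfates the HNK-1 glycan, had 95 counts (4.13 CPM) with IL-17A and 219 counts (8.76 CPM) with vehicle, 2.12-fold lower (interval 1.66 to 2.73), at 38863867 to 38898161 on chromosome 1. Chst2, which sulfates N-acetylglucosamine, had 1954 counts with IL-17A and 1369 with vehicle, 1.55-fold higher (interval 1.45 to 1.66). Chst1, a keratan sulfate sulfotransferase, had 94 counts with IL-17A and 58 with vehicle, 1.76-fold higher (interval 1.26 to 2.49). Chst8, under the minimum, had 7 counts with IL-17A and 22 with vehicle.

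Outside the cell, Sulf2 gave the lowest ratio of any member. Sulf1 and Sulf2 are secreted endosulfatases that take 6-O-sulfates off finished heparan sulfate. Sulf2 had 2456 counts (107 CPM) with IL-17A and 9917 counts (397 CPM) with vehicle, 3.72-fold lower (interval 3.55 to 3.88), and lies at 166073089 to 166155663 on chromosome 2. Sulf1 had 2791 counts with IL-17A and 2591 with vehicle, a ratio of 1.17 (interval 1.11 to 1.24). Sulf2 was the higher of the pair per kilobase in both libraries, at 18.2 CPM against 10.7 CPM for Sulf1 with IL-17A and at 67.5 CPM against 9.17 CPM with vehicle. Their summed counts were 5247 with IL-17A, 46.8% of them from Sulf2 (interval 45.5 to 48.2), and 12508 with vehicle, 79.3% of them from Sulf2 (interval 78.6 to 80.0). Hpse, the heparanase that cuts the chain, had 131 counts with IL-17A and 95 with vehicle, 1.5-fold higher (interval 1.14 to 1.97). Leukocytes also express Hpse, and the part of the leukocyte markers given above in its ratio was not tested.

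The core proteins at the cell surface stood in another order in each library. Syndecans span the membrane, and Sdc4 is known from focal adhesions. Sdc4 had 5067 counts (220.2 CPM) with IL-17A and 1774 counts (70.9 CPM) with vehicle, 3.10-fold higher (interval 2.94 to 3.28), and lies at 164424247 to 164443887 on chromosome 2. Sdc1 had 5528 counts with IL-17A and 3706 with vehicle, 1.62-fold higher (interval 1.55 to 1.69), and Sdc3 had 7641 with IL-17A and 7067 with vehicle, a ratio of 1.18 (interval 1.14 to 1.21). Sdc2 had 2991 counts with IL-17A and 4759 with vehicle, 1.46-fold lower (interval 1.40 to 1.53). Per kilobase, Sdc4 was the highest of the 4 syndecans with IL-17A, 86.5 CPM or 35.8% of their sum, and the lowest with vehicle, 27.9 CPM or 16.6%. With vehicle the highest per kilobase was Sdc2 at 54.0 CPM, which was the lowest with IL-17A at 36.9 CPM. By counts, without length, Sdc3 was the highest syndecan in both libraries, with 36.0% of their counts with IL-17A and 40.8% with vehicle. Sdc4 held 23.9% of the counts with IL-17A and 10.3% with vehicle.

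Glypicans are held by a lipid anchor, and 4 of the 5 members had ratios below 1, while all measured genes had a median log2 ratio of 0.00. Gpc6 had 571 counts (24.8 CPM) with IL-17A and 1828 counts (73.1 CPM) with vehicle, 2.95-fold lower (interval 2.68 to 3.24), at 116925315 to 117976544 on chromosome 14. Gpc3 had 2497 counts with IL-17A and 3800 with vehicle, 1.40-fold lower, and Gpc4 had 5244 with IL-17A and 7088 with vehicle, 1.24-fold lower. Gpc2 had 47 counts with IL-17A and 75 with vehicle, a log2 ratio of -0.55, and 55.6% of its exon bases are shared with another annotated gene. Gpc1 had 10347 counts (449.7 CPM) with IL-17A and 6140 counts (246 CPM) with vehicle, 1.83-fold higher (interval 1.77 to 1.89), with an opposite-strand gene over 18.9% of its exon bases. Summed over the family, the level was 813 CPM with IL-17A and 757 CPM with vehicle, a ratio of 1.07. Per kilobase, Gpc1 took 40.0% of it with IL-17A and 21.3% with vehicle, and Gpc4 took 39.5% with IL-17A and 47.9% with vehicle.

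**Figure D4:**
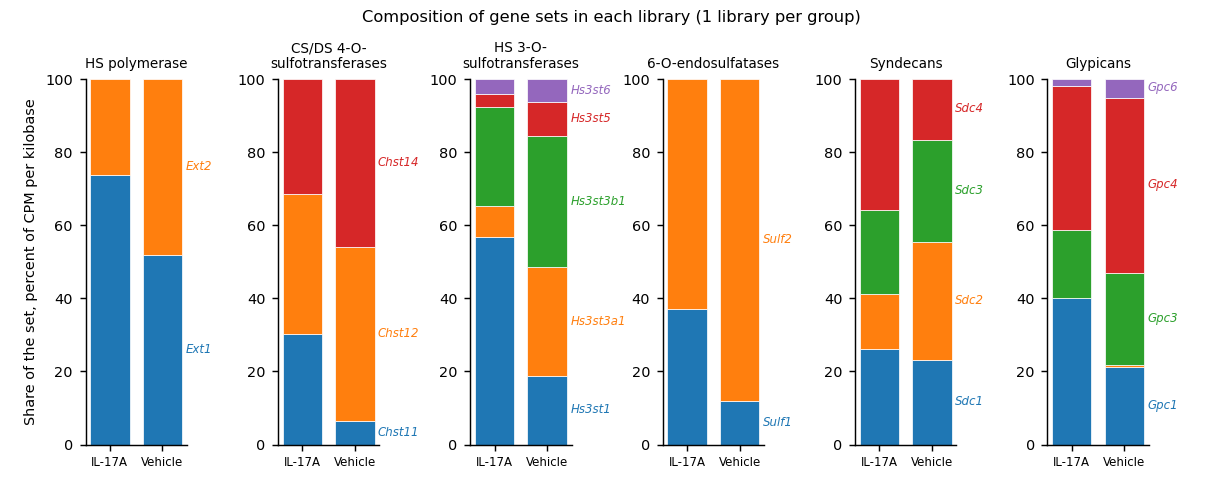
Share of each gene in the summed level of its set, in percent of CPM per kilobase of merged exon, in the IL-17A library (left bar) and the vehicle library (right bar), 1 library each and no error bars; genes with a share under 5% in both bars are not named. Ext1 takes 73.8% of the polymerase pair with IL-17A and 52.0% with vehicle, Chst11 takes 30.2% of the 4-O-sulfotransferases with IL-17A and 6.41% with vehicle, and Sulf2 takes 62.9% of the endosulfatases with IL-17A and 88.0% with vehicle.

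Genes that supply the pathway were near a ratio of 1. All 15 measured genes of sulfate donor and nucleotide sugar supply were within 2-fold, between -0.16 for Ugp2 and 0.37 for Ugdh on the log2 scale, with a median of 0.03. Among them the sulfate donor synthases Papss1 and Papss2 stood at -0.16 and 0.16. Fam20b and Pxylp1, the kinase and phosphatase that act on the linker's xylose, stood at 0.03 and -0.07. All 16 lysosomal genes that break the chains down were within 2-fold as well, with a median of 0.16 and a range of -0.78 for Arsg to 0.40 for Glb1. By the same rule, 12332 of all 13534 measured genes were within 2-fold, so lists of this size wholly within it do not set these steps apart.

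Core proteins outside the syndecans and glypicans included called genes. Among all measured genes, 5.19% were higher and 3.69% lower by the same rule. Of 6 other heparan sulfate core proteins, 1 was higher and 0 lower: Col18a1, the basement membrane collagen that carries heparan sulfate, at 455 CPM with IL-17A and 181 CPM with vehicle, 2.51-fold higher (interval 2.43 to 2.60). Agrn and Hspg2, which encode agrin and perlecan, stood at 0.64 and -0.35. Core proteins of chondroitin and dermatan sulfate had 3 of 10 measured genes higher and 1 lower, and their median log2 ratio was 0.25. Dcn, the dermatan sulfate proteoglycan decorin, was 6.15-fold higher (interval 6.05 to 6.25), at 4186 CPM with IL-17A and 681 CPM with vehicle. Cd74 had 515 counts with IL-17A and 153 with vehicle, and Srgn had 63 with IL-17A and 33 with vehicle. Both are also expressed by leukocytes, whose 6 markers ranged from 0.676 to 1.94 in ratio, and their part in these differences was not tested. Cspg4, also used as a mural cell marker, had 1070 counts with IL-17A and 2908 with vehicle, 2.50-fold lower (interval 2.33 to 2.68), beside the 4 mural markers, whose ratios were 0.0652 to 0.311 and whose part was not tested either. Srgn was inside the limit at 0.99 on the log2 scale with scaling by total counts.

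Ligands and receptors that work with heparan sulfate included genes called in both directions. The list had 15 measured growth factors and FGF receptors, 3 of them higher, 2 lower and 10 within the limit, and its median log2 ratio was 0.57. By the same rule, 5.19% of all measured genes were higher and 3.69% lower. Fgf7, a fibroblast factor for keratinocytes, had 5539 counts with IL-17A and 2104 with vehicle, 2.86-fold higher (interval 2.72 to 3.01). Pdgfb, a platelet-derived growth factor chain, had 236 counts with IL-17A and 36 with vehicle, 7.12-fold higher (interval 5.0 to 10.4). Ptn, the heparin-binding factor pleiotrophin, had 1365 counts with IL-17A and 8762 with vehicle, 5.91-fold lower (interval 5.58 to 6.26), and Fgf18 had 3 with IL-17A and 64 with vehicle, 19.6-fold lower (interval 6.42 to 97.7). With 2 counts added in each library, Fgf18 stood at -3.60 in place of -4.29 on the log2 scale. Fgfr2 stood at 1.05, and at 0.98 with scaling by total counts. Of 8 proteases known to shed syndecans or glypicans or related to them, 4 were higher and 1 lower: Mmp3, Mmp9, Adamts4 and Mmp2 at 6.90, 5.39, 1.49 and 1.42 on the log2 scale, and Adamts1 at -1.68. Like the other lists, the protease list was chosen with earlier results of these data known. The shares over all measured genes were again 5.19% higher and 3.69% lower. Shedding itself was not measured here.

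**Figure D5:**
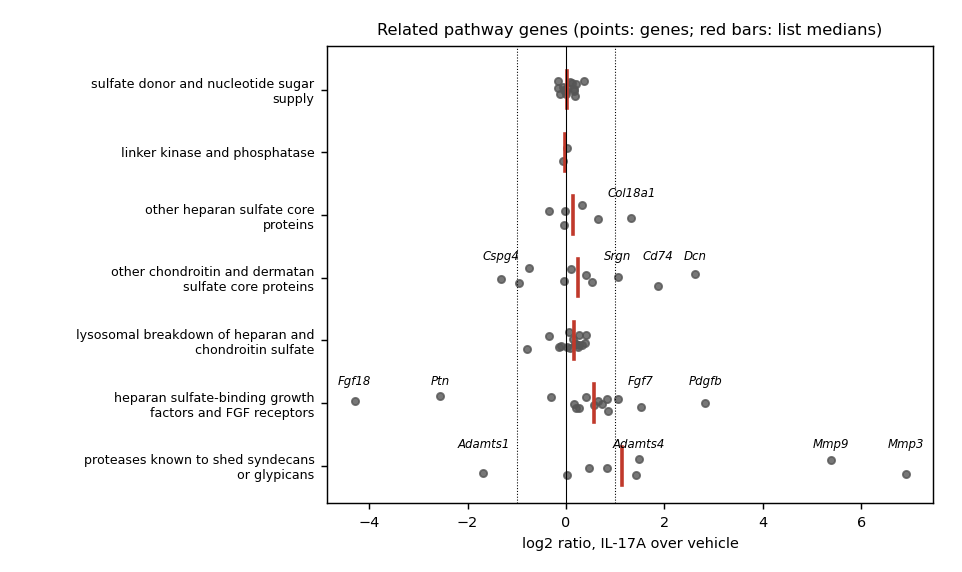
log2 ratio of IL-17A over vehicle for each measured gene (points) of 7 related gene lists, with list medians as red bars and dotted lines at 2-fold; up to 4 genes past 2-fold are named per list. The supply and breakdown lists lie wholly inside the lines, as do 12332 of all 13534 measured genes. The list of shedding proteases, chosen with earlier results of these data known, has a median of 1.13.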

How the data were processed

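Per the submitters' processing notes, the authors used STAR, featureCounts and the mm10 build. Their versions, the annotation, strandedness in counting and the handling of multi-mapped reads were not given in the sources used here. Per the labels' protocols, the libraries came from Illumina's stranded mRNA kit. The authors deposited unnormalized counts by gene symbol, 1 column for each library.

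TMM scaling used edgeR 4.0.16 (R 4.3.3). Each ratio of IL-17A over vehicle has an exact 95% interval from the binomial split of a gene's counts between the libraries. With 1 library per group no residual degrees of freedom remain, so no test was run. A count of 0 allows up to 3 counts, 0.127 CPM with IL-17A and 0.123 CPM with vehicle. Exon lengths, positions, overlaps and shared stretches came from GENCODE M21 (GRCm38), which may differ from the authors' annotation, and promoter bases from RefSeq. Merged exon length takes in every annotated exon of a gene, expressed here or not. Orders between genes per kilobase depend on that length. The calculation was tested on simulated Poisson counts with known library sizes. These held no variation between cultures and no PCR copies, so that test checks the arithmetic and not the calls.

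The members and lists were chosen with earlier results of these data known. All members are named, and of each related list the rule took up to 4 genes past 2-fold by absolute log2 ratio. Fgfr2 and Mmp2, the next in their lists, and the list genes named within 2-fold were added after their values were seen. Of 65 genes on the role lists, 54 were in the table and the rest were not analysed here. Alternatives were other scalings (total counts, upper quartile, DESeq2 1.42.0), other minimums and limits, and a prior count of 2.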

Additional observations from a re-analysis of the deposited data

How the results depend on the processing

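With the scalings by total counts, upper quartile and DESeq2 size factors, the counts of 6 members higher and 5 lower were the same, and the median of 0.16 ranged from 0.10 to 0.16. The scalings shifted every log2 ratio by at most 0.07. A minimum of 10, or none with a prior count of 2, gave 6 higher and 6 lower, and a minimum of 200 left 44 members, with 6 higher and 3 lower and a median of 0.20. A limit of 1.5-fold gave 11 higher and 6 lower, and one of 3-fold gave 4 higher and 1 lower. Asking for the whole counting interval past 2-fold gave 6 higher and 2 lower. Leaving out 5 members that overlap another gene over more than 10% of their exon bases, an alternative chosen after seeing the data, gave 5 higher and 4 lower of 45. Of 135 single genes and summed levels, 11 with log2 ratios of 0.07 or less changed sign under another scaling. None past 2-fold changed sign under any scaling or a prior count of 2. The scaling shifts are too small to turn such a ratio, so for the scalings that could not have come out otherwise. Total-count scaling moved Fgfr2 and Srgn inside 2-fold and Ptprz1 past it, at -1.02. No paired analysis was possible because each group has 1 library. Depth limits Chst3, Chst7 and Hs3st5 most, with 69 to 71 summed counts, and nothing here measures variation between cultures.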

Other observations

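Some members lie on the same chromosome, and no distance rule was set and no local relation was tested. On the minus strand of chromosome 2 in GENCODE M21 on GRCm38, Sdc4 at 164424247 to 164443887 was 3.10-fold higher with IL-17A, and Sulf2 at 166073089 to 166155663 was 3.72-fold lower. On the X chromosome, Hs6st2 at 51387212 to 51681856, Gpc4 at 52053021 to 52165252 and Gpc3 at 52272426 to 52613950 had log2 ratios of 0.31, -0.31 and -0.49. On chromosome 11, Hs3st3b1 at 63885792 to 63922290 and Hs3st3a1 at 64435332 to 64522841, which share sequence, had log2 ratios of 0.13 and -1.22.

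Ordered by level per kilobase of merged exon, the 6 highest members with IL-17A were Gpc1, Sdc4, Gpc4, Ext1, Csgalnact1 and Sdc1, between 87.2 and 63.1 CPM. With vehicle they were Gpc4, Sulf2, Gpc3, Sdc2, Csgalnact1 and Gpc1, between 106.9 and 47.6 CPM. Chst3 was the lowest member in both libraries, at 0.134 CPM per kilobase with IL-17A and 0.302 with vehicle.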
